A study of Bos taurus with 6 samples.

Results

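The genes described here encode the enzymes of glycolysis, the enzymes and transporters that handle its products pyruvate and lactate, and the enzymes of the pentose phosphate pathway. They were taken from the table by their gene symbols, with glucose transporters left out, and all 35 of 35 symbols were found among the 23475 genes listed: 20 of glycolysis, 9 of pyruvate and lactate handling and 6 of the pentose phosphate pathway. Bovine preadipocytes, the fibroblast-like precursors of fat cells, had been isolated from the subcutaneous fat of 3 calves, called premature in the study's methods, and grown in high-glucose medium with serum. One group of 3 libraries came from cells transfected with the bta-miR-484 agomir, a modified double-stranded RNA that supplies the miRNA, and the other group of 3 libraries from cells transfected with agomir NC, the negative control RNA, whose cells are called NC cells. All cells were collected at 48 h. Neither the labels nor the methods, which give n = 3 for the sequencing, tie a sample to a calf or say whether the cells of the calves were pooled, so the SD and the p-values measure the spread between these samples, which may be technical.

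Glycolysis splits glucose into pyruvate in the cytosol and yields ATP and NADH. The pentose phosphate pathway branches off at glucose 6-phosphate, and its oxidative arm makes NADPH, which fat cells use for fatty acid synthesis, while its non-oxidative arm makes ribose 5-phosphate for nucleotides and returns carbon to glycolysis. Pyruvate is then either reduced to lactate and exported or oxidised in the mitochondrion through pyruvate dehydrogenase, which is held back by pyruvate dehydrogenase kinases.

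The libraries had high levels of stromal markers and low levels of the markers of mature adipocytes. The labels call the cells adipocytes, a word the study also uses for its preadipocytes. The 7 stromal markers summed to between 15543 and 16685 FPKM in a library, with COL1A1, a collagen chain, the most abundant at 5473 to 6364 FPKM. The 6 markers of mature adipocytes summed to between 6.66 and 8.51 FPKM. The adipokine genes ADIPOQ and LEP were at most 0.197 and 0.0368 FPKM, and the highest of the 6 markers was LPL at 3.48 to 4.33 FPKM. Of the skeletal muscle markers, MYOD1, MYOG and CKM were listed at 0 in every library, and the endothelial and leukocyte markers summed to at most 3.97 and 1.47 FPKM.

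The unit throughout is FPKM, mapped fragments scaled to transcript length and library size, so levels can be compared between genes. Depth cannot be given, because FPKM carries no read numbers. The FPKM of a library summed to between 365977 and 379361.

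Glycolytic genes were among the most abundant in these cells. GAPDH, the dehydrogenase that forms NADH in the pathway, had the highest mean at 2255 FPKM and ranked 8 of all 23475 genes. ALDOA, the aldolase that splits fructose 1,6-bisphosphate, followed at 1102 FPKM, and PKM, a pyruvate kinase gene, at 1090.1 FPKM. ENO1, the main enolase, was at 871 FPKM and PGAM1, the phosphoglycerate mutase before it, at 499.6 FPKM. GPI and TPI1, both isomerases, and PGK1, the kinase that acts after GAPDH, lay between 240.5 and 263 FPKM. The 35 genes together took between 2.15% and 2.23% of the FPKM of a library.

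The pentose phosphate genes spanned a wide range of levels. TALDO1 (transaldolase) had a mean of 222 FPKM, TKT (transketolase) 158 FPKM and PGD, a dehydrogenase of the oxidative arm, 147 FPKM. PGLS, the lactonase that acts before PGD, was at 37.9 FPKM. RPE, the epimerase, and RPIA, the isomerase, both act on ribulose 5-phosphate and were the lowest, at 8.47 and 7.38 FPKM.

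Of the 35 genes, 13 had a mean above 100 FPKM, 10 lay between 10 and 100 FPKM, 10 between 0.5 and 10 FPKM and 2 below 0.5 FPKM. Those 2, the myeloid hexokinase HK3 and the neuronal enolase ENO2, were left out of the test, which left 33. HK3 measured 0.101, 0.0945 and 0.10 FPKM in agomir cells, against 0.105, 0.212 and 0.0627 FPKM in NC cells. ENO2 measured 0.189, 0.321 and 0.297 FPKM in agomir cells, against 0.414, 0.182 and 0.135 FPKM in NC cells. Both overlapped between the groups.

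**Figure D1:**
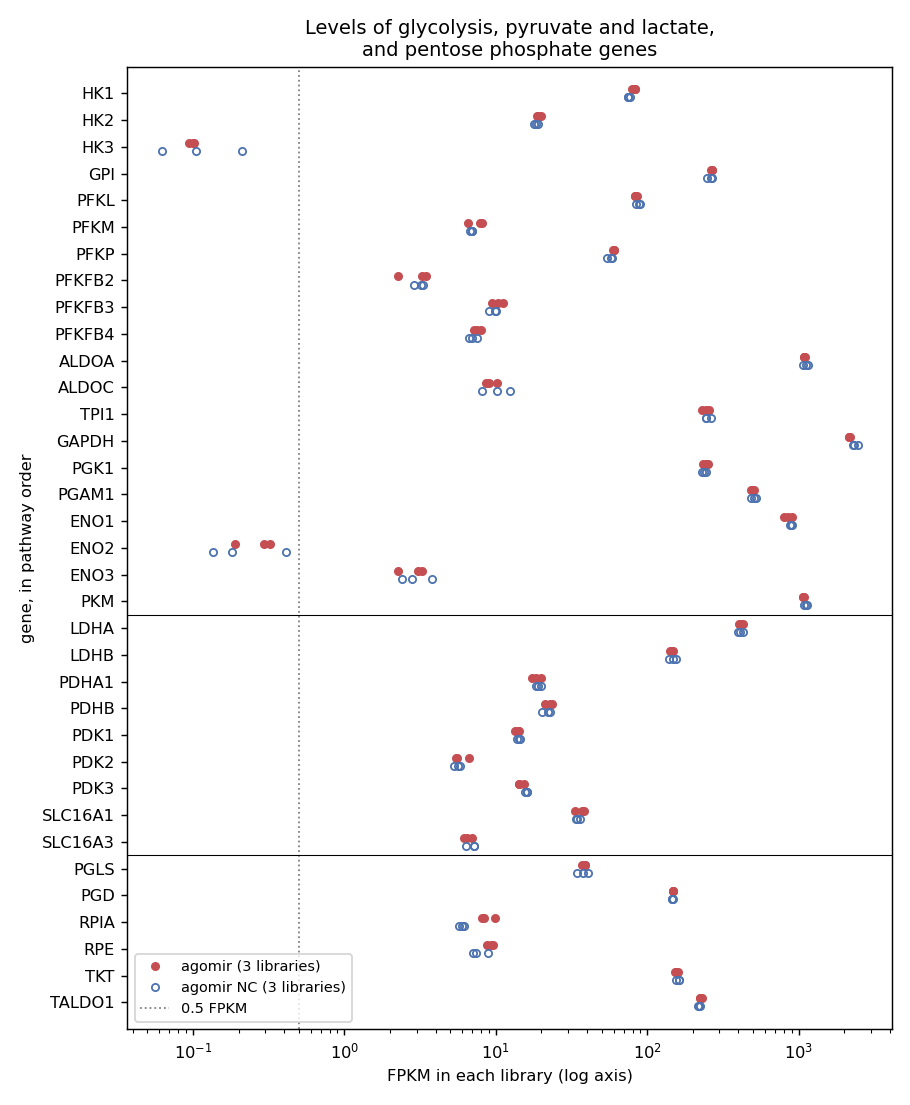
FPKM of the 35 genes in each library on a log axis, with filled dots for the 3 agomir libraries and open dots for the 3 agomir NC libraries; horizontal lines part glycolysis, pyruvate and lactate handling, and the pentose phosphate pathway, and the dotted line marks 0.5 FPKM. GAPDH is the highest at a mean of 2255 FPKM, HK3 and ENO2 lie below 0.5 FPKM, and the dots of most genes coincide at this scale.

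Transfection with the bta-miR-484 agomir was compared with agomir NC to ask which of these genes differ when the miRNA is supplied. The largest difference was in RPIA, which was higher with the agomir, with a smaller one in RPE, so both enzymes that act on ribulose 5-phosphate were higher while PGD, TKT, TALDO1 and PGLS were within 0.040 of no difference on the log2 scale. In glycolysis, HK1 was slightly higher and GAPDH slightly lower. No pyruvate or lactate gene differed at an unadjusted p of 0.05. The 4 genes RPIA, RPE, HK1 and GAPDH were at an unadjusted p under 0.05 in limma's moderated test on log2(FPKM + 0.5), a scale that understates the change of low genes. None of the 33 was under an adjusted p of 0.05, where the lowest was 0.122 (limma, Benjamini-Hochberg over all genes tested).

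The share of genes that differed was near that of all genes. At an unadjusted p of 0.05, 4 of the 33 genes (12.1%) differed, against 10.9% of the 12422 genes tested. Of the 33, 3 were higher with the agomir (9.09%, against 6.63% of all genes) and 1 was lower (3.03%, against 4.31%). At an adjusted p of 0.05 limma called 0 of the 33 and 0.00805% of all genes. The groups did not overlap in 7 of the 33 genes, 4 higher (against 10.9% of all genes in that direction) and 3 lower (against 6.36%), where 17.2% of all genes did not overlap in either direction. The median log2 fold change was 0.0095 for the 33 genes and 0.013 for all genes tested.

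RPIA, ribose 5-phosphate isomerase, converts ribulose 5-phosphate to the ribose 5-phosphate used for nucleotides. It measured 9.87, 8.40 and 8.11 FPKM in agomir cells, against 6.0, 5.68 and 6.20 FPKM in NC cells. Every agomir library was above every agomir NC library, and agomir replicate 1 was the highest. Group means were 8.79 ± 0.943 and 5.96 ± 0.260 FPKM (SD, n = 3 each), or 1.48 times as much RNA. The log2 fold change was 0.52 (standard error 0.086, limma's unadjusted p = 0.000151, adjusted p = 0.122). By exact permutation of the labels p was 0.1 (two-sided), and no lower value is possible for groups of 3. Dropping single libraries gave log2 fold changes from 0.44, without agomir replicate 1, to 0.57. Over 15 other settings, limma's unadjusted p stayed between 0.000146 and 0.000832 and the adjusted p between 0.119 and 0.377. When each library was scaled to its GAPDH value, a setting that shifts all genes, the adjusted p was 0.0152 in limma.

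RPE, ribulose 5-phosphate 3-epimerase, makes the xylulose 5-phosphate that TKT uses. It measured 8.70, 9.24 and 9.53 FPKM in agomir cells, against 7.38, 7.11 and 8.85 FPKM in NC cells. Agomir NC replicate 3 lay inside the agomir range, and the other libraries were apart. Group means were 9.16 ± 0.419 and 7.78 ± 0.935 FPKM (SD, n = 3 each), and the log2 fold change was 0.23 (standard error 0.088, unadjusted p = 0.0288, adjusted p = 0.403 in limma). It was 0.32 without agomir NC replicate 3. Its unadjusted p was above 0.05 without agomir replicate 2 or 3 and without agomir NC replicate 1 or 2, and it reached 0.106 in limma, with a lowest log2 fold change of 0.17.

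RPIA differed more than RPE. The level of RPIA relative to RPE was 1.13, 0.909 and 0.851 in the agomir libraries and 0.813, 0.799 and 0.700 in the agomir NC libraries, and the groups did not overlap in this ratio either. Relative to PGD, RPIA was at 0.0668, 0.0571 and 0.0548 with the agomir and at 0.0413, 0.0389 and 0.0417 with agomir NC. The level of TALDO1 was 25.8 ± 2.78 times that of RPIA with the agomir and 36.9 ± 1.32 times with agomir NC (SD, n = 3 each). These ratios were not tested.

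In the RefSeq annotation of ARS-UCD2.0, a later build than that of the deposited values, RPIA overlaps only a transfer RNA gene. RPE overlaps KANSL1L, which measured 5.15, 5.75 and 5.43 FPKM in agomir cells, against 5.45, 6.54 and 5.71 FPKM in NC cells. KANSL1L was thus not higher with the agomir, and its log2 fold change was -0.10 (standard error 0.088).

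The other pentose phosphate genes were close in both groups. PGD, which makes NADPH in the oxidative arm, measured 147.8, 147.3 and 147.9 FPKM in agomir cells, against 145.1, 146.2 and 148.7 FPKM in NC cells. It was the steadiest of the 35 genes, with a coefficient of variation of 0.865% over all 6 libraries. Its log2 fold change was 0.0095, with a 95% interval from -0.071 to 0.090. PGLS measured 39.1, 36.9 and 38.8 FPKM in agomir cells, against 34.6, 37.7 and 40.4 FPKM in NC cells, a log2 fold change of 0.029 with an interval from -0.11 to 0.17.

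TKT, which moves units of a pair of carbons between sugars, measured 160.4, 152.3 and 154.3 FPKM in agomir cells, against 153.8, 163.0 and 163.3 FPKM in NC cells. The groups overlapped, and the log2 fold change was -0.040, with an interval from -0.13 to 0.055. TALDO1, which with TKT links the pathway back to glycolysis, measured 224.6, 222.9 and 228.5 FPKM in agomir cells, against 218.6, 218.1 and 222.2 FPKM in NC cells. Its groups did not overlap, but the difference was small, with a log2 fold change of 0.037, an interval from -0.043 to 0.12 and an unadjusted p of 0.323 in limma.

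**Figure D2:**
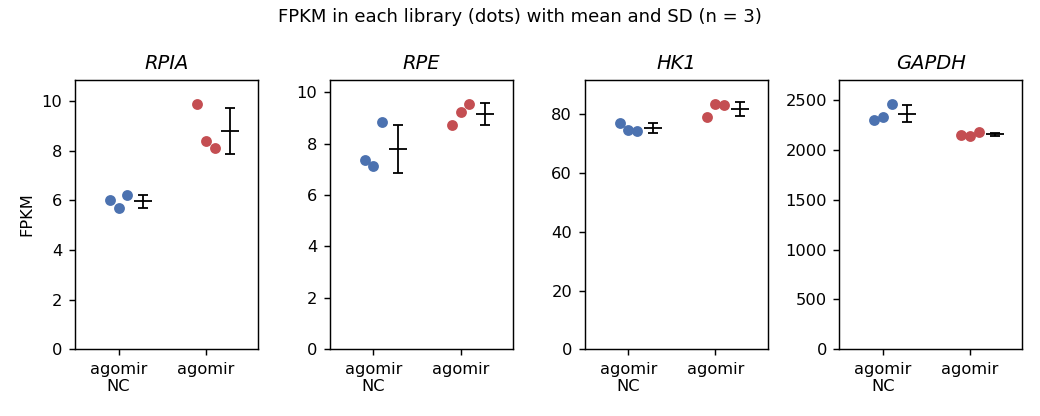
FPKM of RPIA, RPE, HK1 and GAPDH in each library (dots, agomir NC in blue and agomir in red), with the mean and SD of the 3 libraries of each group beside the dots, on linear axes from 0. RPIA is at 8.79 against 5.96 FPKM and its dots are apart, and the differences in HK1 and GAPDH are small beside their levels.

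HK1, the hexokinase that traps glucose in most tissues, measured 79.0, 83.4 and 83.0 FPKM in agomir cells, against 77.2, 74.6 and 74.3 FPKM in NC cells. All agomir libraries were above all agomir NC libraries. Group means were 81.8 ± 2.45 and 75.4 ± 1.59 FPKM (SD, n = 3 each), and the log2 fold change was 0.12 (standard error 0.042, unadjusted p = 0.0201, adjusted p = 0.378 in limma). The unadjusted p was above 0.05 in limma without agomir replicate 2, without agomir replicate 3 and without the variance trend, at most 0.0738. The genes that overlap HK1 in ARS-UCD2.0 are little expressed here, with HKDC1 listed at 0 in every library and TACR2 at 0.484 FPKM or less.

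HK1 made up 79.6% to 81.6% of the summed FPKM of the 3 hexokinases in a library, and HK2, the insulin-regulated form, 18.3% to 20.3%. HK2 averaged 19.2 ± 0.699 FPKM in agomir cells and 18.5 ± 0.533 FPKM in NC cells (SD, n = 3 each), and the hexokinase shares overlapped between the groups.

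Phosphofructokinase commits sugar to glycolysis and is built from PFKL, PFKP and PFKM subunits. PFKL made up 54.9%, 55.6% and 55.6% of their summed FPKM in the agomir libraries and 57.8%, 58.2% and 57.8% in the agomir NC libraries. PFKP, the platelet form, made up 39.8%, 40.0% and 39.3% with the agomir and 37.4%, 37.4% and 37.8% with agomir NC. The balance between the 2 main subunits thus did not overlap between the groups. Neither gene alone was under an unadjusted p of 0.05 in limma: PFKP had a log2 fold change of 0.083 with a standard error of 0.044 and PFKL one of -0.062 (standard error 0.042). PFKM, the muscle form, was at 4.37% to 5.35%. In the 7 other gene families examined in this way, the shares overlapped between the groups. RPIA and RPE, which are different enzymes and not isoforms, were set against each other in the same way. Their shares did not overlap, which restates their ratio given above. Shares were not tested.

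The 3 genes PFKFB2, PFKFB3 and PFKFB4 encode enzymes that set the level of fructose 2,6-bisphosphate, the activator of phosphofructokinase. PFKFB3 was the most abundant at a mean of 9.95 FPKM, before PFKFB4 at 7.31 and PFKFB2 at 3.06 FPKM. Their log2 fold changes were 0.091, 0.097 and -0.073, with standard errors of 0.078, 0.076 and 0.14, and their groups overlapped. Dropping single libraries moved PFKFB2 from -0.17, without agomir replicate 1, to 0.087, without agomir replicate 2, and PFKFB3 from 0.034, without agomir replicate 1, to 0.15, without agomir replicate 3. PFKFB4 lay between 0.057, without agomir NC replicate 2, and 0.15, without agomir NC replicate 1.

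GAPDH measured 2149, 2137 and 2172 FPKM in agomir cells, against 2297, 2324 and 2454 FPKM in NC cells. All agomir libraries lay below all agomir NC libraries, and agomir NC replicate 3 was the highest. Group means were 2153 ± 17.6 and 2358 ± 84.2 FPKM (SD, n = 3 each), 8.71% lower with the agomir. The log2 fold change was -0.13 (standard error 0.041, unadjusted p = 0.00974, adjusted p = 0.333 in limma), and dropping single libraries gave values from -0.15 to -0.10. Under quantile normalization, which sets each value by its rank in the library, it was -0.018 with an unadjusted p of 0.437. By exact permutation p was 0.1 (two-sided). Whether reads from processed copies of GAPDH elsewhere in the genome were counted with it is not known from the sources used here.

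GAPDH was also the gene against which mRNA levels were normalised in the study's qPCR. The primers of that assay are shown, from 5′ to 3′, because they define the part of the mRNA measured there.
GAPDH forward: actctggcaaagtggatgttgtc
GAPDH reverse: gcatcaccccacttgatgttg
When the FPKM of each library were divided by its GAPDH value, the median log2 fold change of all genes moved from 0.013 to 0.13, and 32.1% of all genes were then higher with the agomir at an unadjusted p of 0.05 and 0.692% lower. On this scale GAPDH itself is constant, and 20 of the 32 genes left were higher and 0 lower. Of the 32, 7 were under an adjusted p of 0.05 in limma, among them RPIA, RPE and HK1. Of all 12421 genes tested on this scale, 839 were under that adjusted p. The median log2 fold change was then 0.11 for the glycolysis genes and 0.16 for the pentose phosphate genes.

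No glycolysis gene other than HK1 and GAPDH had an unadjusted p under 0.05 in limma. PKM measured 1061, 1071 and 1081 FPKM in agomir cells, against 1127, 1089 and 1111 FPKM in NC cells, without overlap, but its log2 fold change was -0.050, with a 95% interval from -0.13 to 0.030. ENO1 had a log2 fold change of -0.066, TPI1 of -0.049, ALDOA of -0.029, PGAM1 of -0.018, PGK1 of 0.038 and GPI of 0.039, and these 6 overlapped between the groups. ENO1 was at -0.11 without agomir replicate 2, with an unadjusted p of 0.0488 in limma, and at -0.022 without agomir replicate 3. TPI1 was at -0.0064 without agomir replicate 2, ALDOA at -0.0030 and PGAM1 at 0.0061 without agomir NC replicate 3, and GPI at 0.010 without agomir NC replicate 2. Quantile normalization turned ALDOA to 0.042, PGAM1 to 0.038 and PKM to 0.0051. The low isoforms ALDOC and ENO3 had log2 fold changes of -0.12 and -0.052, with standard errors of 0.13 and 0.16, and their groups overlapped. ALDOC was at -0.27 without agomir NC replicate 1, with an unadjusted p of 0.0311 in limma, and at 0.020 without agomir NC replicate 3, and ENO3 ranged from -0.18 without agomir NC replicate 2 to 0.10 without agomir NC replicate 1. ALDOA made up at least 98.9% of the summed FPKM of both aldolases in every library, and ENO1 at least 99.5% of that of the enolases.

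The summed FPKM of all 35 genes took 2.15%, 2.18% and 2.17% of the agomir libraries and 2.21%, 2.22% and 2.23% of the agomir NC libraries, without overlap. Without GAPDH, the sum took 1.57%, 1.6% and 1.58% with the agomir and 1.59%, 1.58% and 1.59% with agomir NC. The groups overlapped once GAPDH was left out. The pentose phosphate genes alone took 0.160%, 0.157% and 0.160% with the agomir and 0.153%, 0.158% and 0.155% with agomir NC, and these overlapped.

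Genes of pyruvate and lactate handling were close in both groups. LDHA, the lactate dehydrogenase subunit that favours lactate formation, measured 404, 428 and 415 FPKM in agomir cells, against 410.2, 398 and 431 FPKM in NC cells. Its log2 fold change was 0.0099, with a 95% interval from -0.087 to 0.11. LDHB was at 144 ± 2.74 and 147 ± 7.72 FPKM (SD, n = 3 each), and LDHA made up 73.4% to 74.7% of the pair in every library. SLC16A1, a lactate transporter, was at 36.1 ± 2.44 against 34.7 ± 1.09 FPKM and SLC16A3, the transporter of highly glycolytic cells, at 6.54 ± 0.414 against 6.94 ± 0.496 FPKM (SD, n = 3 each).

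The pyruvate dehydrogenase subunit genes PDHA1 and PDHB had means of 18.9 and 22.1 FPKM and log2 fold changes of -0.040 and 0.053. PDHA1 turned to 0.0030 without agomir replicate 1, and PDHB was at 0.0020 without agomir NC replicate 1. Of the kinases that inhibit the complex, PDK3 measured 14.2, 15.4 and 14.3 FPKM in agomir cells, against 16.0, 15.5 and 16.1 FPKM in NC cells. These did not overlap, and the log2 fold change was -0.12 (standard error 0.057, unadjusted p = 0.0689, adjusted p = 0.50 in limma). Its unadjusted p was under 0.05 in limma with median-ratio scaling (0.0353), with quantile normalization (0.0278), with no filter on low values (0.0429) and without agomir replicate 2 (0.0355). PDK1 had a log2 fold change of -0.030 and PDK2 of 0.062, and their groups overlapped. PDK1 was at -0.0056 without agomir replicate 3, and PDK2 turned to -0.021 without agomir replicate 1.

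**Figure D3:**
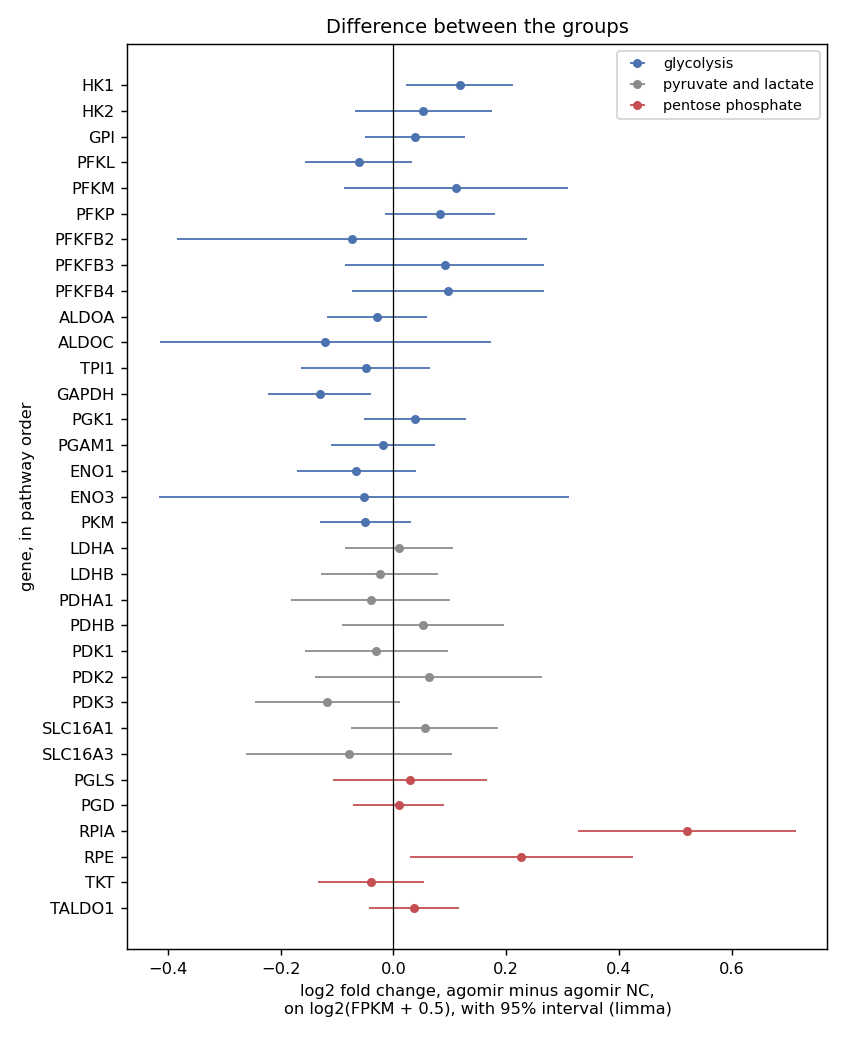
Log2 fold change of each of the 33 tested genes, agomir minus agomir NC, on log2(FPKM + 0.5), with its 95% interval from limma, in pathway order. RPIA at 0.52 stands apart from the rest, the intervals of RPE, HK1 and GAPDH also leave out 0, and all others include it.

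The medians of the pathways lay close together. The median log2 fold change was -0.023 for the 18 tested genes of glycolysis and -0.024 for the 9 of pyruvate and lactate handling. It was 0.033 for the 6 of the pentose phosphate pathway, against 0.013 for all genes. The glycolysis median turned to 0.0051 without agomir replicate 2 and 0.0091 without agomir replicate 3. Without agomir NC replicate 1 or 3 it was 0.013, and under quantile normalization 0.033. The pyruvate and lactate median turned to 0.0090 without agomir NC replicate 3. The difference between the pentose phosphate and the glycolysis median was 0.057, and 0.0049 without agomir NC replicate 1. Within each library, the median of the pentose phosphate genes minus that of the glycolysis genes, each gene centred on its mean over all libraries, was 0.025, -0.022 and 0.048 with the agomir and -0.076, 0.012 and 0.017 with agomir NC, and these overlapped. In the pentose phosphate pathway 2 of the 6 genes (33.3%) had an unadjusted p under 0.05, both higher, against 2 of 18 in glycolysis (11.1%), 1 in each direction, and 0 of 9 in pyruvate and lactate handling. Of all genes 10.9% differed, 6.63% higher and 4.31% lower, and the difference between the pathways was not tested. Without RPIA, RPE, HK1 and GAPDH, the 29 other log2 fold changes all lay between -0.12 and 0.11.

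Enzymes next to these pathways and isoforms outside the 35 genes were examined from lists of 77 further genes, of which 75 were in the table and 56 were tested. At an unadjusted p of 0.05, 4 of the 56 (7.14%, against 10.9% of all genes) differed, 0 higher and 4 lower, and none passed an adjusted p of 0.05 in limma. Scaled to GAPDH, 16 of these genes were higher (28.6%, against 32.1% of all genes on that scale) and 0 lower. Around the pentose phosphate pathway, 1 of 20 genes of NADPH and nucleotide sugar supply differed (5.0%, against 10.9% of all genes), ME3, a mitochondrial malic enzyme. The count depended on single libraries: 1 gene was higher and 3 lower without agomir replicate 3, 2 higher and 1 lower without agomir NC replicate 1, 1 higher and 0 lower without agomir replicate 1 and likewise without agomir NC replicate 3, and 0 in either direction without agomir replicate 2 and without agomir NC replicate 2. Across these fits 4.47% to 6.68% of all genes were higher and 3.08% to 4.80% lower. With the replicate block 1 was higher and 1 lower (against 5.94% and 4.20% of all genes). Without the variance trend 2 were lower (against 3.94%), and scaled to GAPDH 7 were higher and 0 lower (against 32.1% and 0.692%). ME3 measured 9.40, 9.81 and 11.4 FPKM in agomir cells, against 11.1, 12.4 and 12.2 FPKM in NC cells, overlapping, with a log2 fold change of -0.22 (standard error 0.083). PRPS1, which carries ribose 5-phosphate on to nucleotides, was at 18.4 ± 1.90 against 16.1 ± 2.14 FPKM (SD, n = 3 each), and its groups overlapped.

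Of 17 tested genes of glycogen metabolism, 2 were lower (11.8%, against 4.31% of all genes) and 0 higher (against 6.63%) at an unadjusted p of 0.05 in limma. None was lower without agomir replicate 1, agomir replicate 3 or agomir NC replicate 2, and scaled to GAPDH 0 were lower and 2 higher. GYS1, glycogen synthase, measured 17.3, 17.3 and 17.4 FPKM in agomir cells, against 18.3, 20.2 and 19.0 FPKM in NC cells (log2 fold change -0.14, standard error 0.056). PYGL, a glycogen phosphorylase, measured 33.6, 36.2 and 34.6 FPKM in agomir cells, against 37.2, 39.0 and 37.7 FPKM in NC cells (log2 fold change -0.12, standard error 0.048). Both the enzyme of synthesis and that of breakdown were thus lower, without overlap. In the gluconeogenesis list 1 of 6 genes was lower (16.7%, against 4.31% of all genes), PCK2, the mitochondrial phosphoenolpyruvate carboxykinase. The list had 2 lower without agomir replicate 3, with median-ratio scaling and with quantile normalization, where 3.62%, 5.68% and 5.06% of all genes were lower. It had 0 lower without agomir NC replicate 1 (against 4.80%). Scaled to GAPDH it had 0 lower and 2 higher (against 0.692% and 32.1%). PCK2 measured 27.1, 28.8 and 29.1 FPKM in agomir cells, against 32.2, 29.7 and 32.9 FPKM in NC cells (log2 fold change -0.15, standard error 0.056). None of the 9 genes of mitochondrial pyruvate import, pyruvate carboxylation and the pyruvate dehydrogenase complex with its phosphatases had an unadjusted p under 0.05, nor did the 4 tested isoforms outside the 35 genes. Of those isoforms 1 was higher at that p with the replicate block and 1 without agomir NC replicate 2 (against 5.94% and 5.28% of all genes). Of the 9 genes 5 were higher scaled to GAPDH (against 32.1% of all genes). With 1 library left out, the unadjusted p of GYS1 was above 0.05 except without agomir NC replicate 1, and it was also above 0.05 with the replicate number as a block (0.0588 in limma) and without the variance trend (0.0533), as was that of PYGL without the trend (0.0644). Scaled to GAPDH, the unadjusted p was 0.885 for GYS1, 0.942 for PYGL, 0.663 for PCK2 and 0.30 for ME3 in limma. That of ME3 was above 0.05 without agomir replicate 1 or 2 or agomir NC replicate 2 or 3, that of PYGL without agomir replicate 1 or 3 or agomir NC replicate 2, and that of PCK2 without agomir replicate 1 or agomir NC replicate 1 or 3.

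Many glycolytic genes are known targets of the hypoxia-inducible factors, so a list of these factors, their regulators and other targets was set beside them. Of its 25 tested genes, 6 were lower (24.0%, against 4.31% of all genes) and 2 higher (8.0%, against 6.63%) at an unadjusted p of 0.05 in limma, 0 were at an adjusted p of 0.05, and its median log2 fold change was -0.015. EPAS1, which encodes one of the factors, measured 379, 374 and 384 FPKM in agomir cells, against 419, 462 and 416 FPKM in NC cells (log2 fold change -0.19, standard error 0.047, limma adjusted p = 0.265). VEGFA, the angiogenic growth factor, measured 147, 139 and 147 FPKM in agomir cells, against 156, 167 and 157 FPKM in NC cells. DDIT4, a stress-induced inhibitor of mTORC1, measured 117, 123 and 125 FPKM in agomir cells, against 127, 147 and 149 FPKM in NC cells. The groups did not overlap in these 3 genes.

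ADM, a vasodilator peptide, measured 125, 116 and 120 FPKM in agomir cells, against 130, 133 and 144 FPKM in NC cells (log2 fold change -0.17). BNIP3, a mitophagy receptor, measured 90.1, 83.9 and 84.6 FPKM in agomir cells, against 89.7, 99.2 and 99.97 FPKM in NC cells (log2 fold change -0.16). NDRG1 measured 93.7, 93.0 and 93.7 FPKM in agomir cells, against 100.8, 100.4 and 100.4 FPKM in NC cells (log2 fold change -0.10). Of these 3 lower genes, BNIP3 overlapped between the groups, with agomir replicate 1 above agomir NC replicate 1. Higher without overlap was HIF1AN, the asparagine hydroxylase that inhibits the factors, which measured 19.98, 20.9 and 22.1 FPKM in agomir cells, against 18.6, 18.3 and 16.7 FPKM in NC cells (log2 fold change 0.22). MYC, a transcription factor, measured 11.6, 11.9 and 11.8 FPKM in agomir cells, against 10.1, 10.5 and 10.8 FPKM in NC cells, also without overlap (log2 fold change 0.16). EPAS1, VEGFA, DDIT4, ADM and HIF1AN kept an unadjusted p under 0.05 in limma in the 15 settings other than scaling to GAPDH. Scaled to GAPDH, EPAS1 (unadjusted p = 0.298 in limma), VEGFA (0.720), DDIT4 (0.165), ADM (0.332), NDRG1 (0.571) and BNIP3 (0.603) lost it, HIF1AN and MYC did not, and the list had 0 genes lower and 9 higher (36.0%, near the 32.1% of all genes on that scale). Without agomir replicate 2, agomir replicate 3 or agomir NC replicate 1, 1 gene of the list was higher (against 4.47%, 5.24% and 6.68% of all genes). The unadjusted p of NDRG1 was also above 0.05 without the variance trend or agomir replicate 3, that of BNIP3 without the variance trend, agomir replicate 2 or 3 or agomir NC replicate 3, and that of MYC without agomir replicate 2 or 3 or agomir NC replicate 1. Of the glycolytic genes, GAPDH was lower and HK1 higher at an unadjusted p of 0.05 in limma. Above that p, PKM lay lower and PFKP higher, each without overlap. LDHA, PGK1, PDK1, ENO1, ALDOA, TPI1, HK2, PFKFB3, PFKFB4 and SLC16A3 had log2 fold changes between -0.078 and 0.097 and overlapping groups. HIF1A itself had a log2 fold change of 0.042 with a standard error of 0.046. The difference between the hypoxia list and the glycolytic genes was not tested.

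Markers of the cell types also differed in part at an unadjusted p of 0.05. DCN, a stromal proteoglycan, had a log2 fold change of -0.12. It was the 1 of 7 stromal markers to differ (14.3%, against 4.31% of all genes lower), while the summed stromal markers overlapped between the groups. FABP4, a fatty acid binding protein of adipocytes, measured 1.82, 2.33 and 1.54 FPKM in agomir cells, against 3.57, 2.21 and 2.88 FPKM in NC cells. Its groups overlapped, with agomir replicate 2 above agomir NC replicate 2, and the log2 fold change was -0.49 (exact permutation p = 0.2, two-sided). FABP4 was the 1 of 3 tested adipocyte markers to differ (33.3%, against 4.31% of all genes lower). The other 2 tested adipocyte markers, PLIN1 and LPL, had log2 fold changes of 0.14 and 0.058 and also overlapped. The 6 adipocyte markers summed to 7.05, 7.97 and 6.66 FPKM with the agomir and to 8.51, 7.29 and 7.95 FPKM with agomir NC. CIDEC and LEP were each listed at 0 in 4 of the 6 libraries. In bulk RNA, fewer cells of a type and less RNA per cell cannot be told apart. In the agomir libraries DCN was at 2840.4, 2899 and 2850.4 FPKM and in the agomir NC libraries at 2991, 3102 and 3248 FPKM, without overlap. The unadjusted p of DCN was above 0.05 without agomir replicate 1 or 3, with no filter (0.0909 in limma), without the variance trend (0.0711), scaled to GAPDH (0.732) and with quantile normalization, where DCN had no difference between the groups, and that of FABP4 without agomir replicate 3 or agomir NC replicate 1. The part of these markers in the differences of RPIA, RPE, HK1 and GAPDH was not tested.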

How the data were processed

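The deposited FPKM values, 1 table for 6 libraries, were made by the authors; the submitters' processing notes name fastp, HISAT2, StringTie and the genome build ARS-UCD1.2, and versions, annotation and strand settings were not given in the sources used here. Groups were taken from the treatment labels. Genes were matched by symbol. FPKM as deposited were converted to log2(FPKM + 0.5). The 12422 of 23475 genes whose mean across the 6 libraries reached 0.5 FPKM were fitted with limma 3.58.1 in R 4.3.3. The fit used eBayes with a variance trend, two-sided tests and Benjamini-Hochberg adjustment over all genes tested. It was also run on values simulated from the mean and spread of each gene in these data. Single genes were also compared with the exact permutation test over 20 labelings, whose smallest two-sided p is 0.1. Isoform shares, sums and ratios were computed from FPKM in each library and not tested. Without read numbers, counting error is not known. Whether reads were shared between near-identical copies of a gene or between overlapping genes was not tested, and such genes are uncertain. Values in every library were given for genes of the pathways and lists at an unadjusted p of 0.05, all pentose phosphate genes, GAPDH, the most abundant gene of each role and genes under the filter; PKM, PDK3 and KANSL1L were added to these once their values had been seen, as were PFKL and PFKP by their shares, PRPS1 by group means and HIF1A by its log2 fold change. The members and lists were chosen with earlier results of these data known. The alternatives, 16 in all, changed the pseudocount, filter, scaling, variance trend and library weights, added the replicate number as a block, or left out 1 library. 1 gene of the lists is not reported here.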

Additional observations from a re-analysis of the deposited data

How the results depend on the processing

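Of 367 alternative values for 23 of the named genes, 304 kept their direction and their side of an unadjusted p of 0.05 in limma. Another 50 lost the call without a change of sign, 4 gained one and 9 changed sign. The 50 include DCN under quantile normalization, where it had no difference between the groups. Of the 29 pathway genes without a call, 12 changed sign in at least 1 alternative other than scaling to GAPDH (9 with 1 library left out), and 4 gained a call with 1 library left out: PFKM, ALDOC, ENO1 and PDK3. RPIA kept its call in all 15 alternatives other than scaling to GAPDH, with log2 fold changes from 0.44 to 0.57.

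Dividing by GAPDH moved the median log2 fold change of all genes to 0.13. On that scale 20 of the 32 genes other than GAPDH were higher, 0 were lower and 7 were under an adjusted p of 0.05, and 25 of 81 genes of the other lists were higher (30.9%, against 32.1% of all genes) and 0 lower, 9 of the 25 being in the hypoxia list. The medians were then 0.11 for glycolysis, 0.11 for pyruvate and lactate and 0.16 for the pentose phosphate genes, and the log2 fold changes were 0.091 for TKT, 0.0043 for PYGL, 0.026 for NDRG1 and 0.011 for DCN, each opposite in sign to the values without it; the division by a gene lower with the agomir raises every value. Of all 12421 genes tested on that scale, 32.8% were then called, 839 at an adjusted p of 0.05.

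With no filter, and with median-ratio scaling, 2 of the genes were lower. With no filter, 5.23% of all genes were higher and 3.45% lower. Median-ratio scaling gave 5.29% of all genes higher and 5.68% lower, against 6.63% and 4.31% without it, and log2 fold changes of -0.0070 for PGD and -0.0067 for LDHA. Quantile normalization gave a glycolysis median of 0.033. The cause of these shifts was not tested.

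With 1 library left out, 1 to 3 genes were higher (1 without agomir replicate 3) and 1 to 3 lower (3 without agomir replicate 2, 2 without agomir NC replicate 1). In these fits 4.47% to 6.68% of all genes were higher and 3.08% to 4.80% lower. The glycolysis median lay between -0.036 and 0.013, and the pentose phosphate median minus it between 0.0049, without agomir NC replicate 1, and 0.069. PGLS lay between -0.028, without agomir NC replicate 1, and 0.082, and LDHA between -0.016 and 0.041. LDHA was -0.011 without agomir replicate 2 and -0.016 without agomir NC replicate 2.

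Between samples with the same replicate number, the deviations from the group means correlated at -0.0506, 0.0532 and 0.0387. Whether such samples shared a calf or a batch is not known from the sources used here. With the replicate block, 3 genes were higher, 1 lower and 0 under an adjusted p of 0.05 in limma, and the GYS1 call was lost, 1 isoform outside the 35 genes and 1 NADPH or nucleotide gene became higher, and 1260 of all genes were at an unadjusted p of 0.05 against 1359 without it. Depth is unknown, and its limit on low genes such as RPIA could not be measured.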
